A study of Rattus norvegicus with 36 samples.

Results

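The smooth muscle contractile genes are 30 genes that encode the actin and myosin filaments of smooth muscle, the proteins bound to them, and the anchors, channels and transcription factor that go with them. They were chosen by name, with no measured value in the rule, though earlier results of these data were known when they were chosen. Of the 30 genes 29 had a row among the 24773 genes of the count table. *Tagln* was not matched to a row and is not analysed here. Counts came from whole sections of distal ileum and proximal colon of 18 male UCD-T2DM rats, a strain that develops type 2 diabetes without a drug or a special diet, through several genes, and that has no nondiabetic strain of like background as a control. The ND group held 6 nondiabetic rats (labelled PD in some records) aged 70 days, the D1M group (also labelled RD) 6 rats aged 168 to 172 days with 22 to 23 days of diabetes, and the D3M group (also labelled LD) 6 rats aged 172 to 173 days with 88 to 116 days of diabetes. Each rat gave 1 ileum and 1 colon library, so the 36 libraries are not 36 independent animals. The ND rats were younger, so age and diabetes cannot be told apart in any comparison with ND.

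The wall of the gut carries its own muscle coat in a circular and a longitudinal layer, with a thin muscularis mucosae beneath the epithelium. Calcium that enters through voltage-gated channels binds calmodulin, myosin light chain kinase then phosphorylates the regulatory light chain, and myosin pulls on actin. Interstitial cells of Cajal, which lie within the muscle, pace this activity, and the enteric neurons between the layers modulate it. A whole section of gut holds epithelium, lamina propria and muscle together, and in such bulk samples fewer cells of a type and less RNA per cell cannot be told apart.

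Library totals ran from 12279059 to 21510043 counts in ileum and from 10024041 to 18299050 in colon. The tissue labels were checked against *Fabp6*, the ileal bile acid binding protein, and *Car1*, a carbonic anhydrase of colonic epithelium. In CPM, counts scaled to a common library total, *Fabp6* had a median of 21800 in ileum against 7.49 in colon, and *Car1* one of 17.9 against 23400. The colon library of ND rat K4028 stood apart with 8190 CPM of *Fabp6*, where the other colon libraries reached at most 19.9 CPM. In ileum that of ND rat K4040 did so with 3860 CPM of *Car1*. The ileum library of D3M rat P762 came next with 1490 CPM, also far above the ileal median. It was kept in the fits and measures below that leave out the colon library of K4028 and the ileum library of K4040. Markers of B cells averaged over 3 on the log2(CPM + 1) scale in 6 ileum and 5 colon libraries. Counts of calls, the spread and the ratios to *Myh11* are given with and without them where they are described.

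All 29 genes were detected in all 36 libraries, with 0 of the 29 at a count of 0 in any of them. The lowest median count belonged to *Myocd*, the cofactor of serum response factor that drives smooth muscle genes, with 16 counts a library and 5 in the lowest, so its values carry the largest counting error of the list. *Kcnmb1*, the beta subunit of the calcium-activated potassium channel, had a median of 58.5 counts and *Cacna1c*, the pore of the L-type calcium channel, 59 counts. *Actg2*, the enteric smooth muscle actin, had a median of 36898 counts.

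Between the tissues, most of these genes were at a higher level in colon. Of the 29 genes, 23 were higher in colon than in ileum over the 3 groups, 1 was lower and 5 did not pass (edgeR quasi-likelihood test with group and flow cell in the model, Benjamini-Hochberg FDR < 0.05 over all 13697 genes tested). Among all genes tested 38.7% were called higher and 34.5% lower, or 73.2% in either direction, so that a call by itself sets no gene apart in this comparison. The median log2 fold change, colon over ileum, was 0.71 over the 29 genes and 0.03 over all genes tested. The direction was not the same in every flow cell, as given below.

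The filament genes rose in all 4 cases. *Myh11*, the smooth muscle myosin heavy chain (chr10:764421-859184 in rn6), had a lowest, median and highest level of 284, 811 and 1710 CPM in the 18 ileum libraries and of 939, 1900 and 3090 CPM in the 18 colon libraries. The ranges overlapped, and colon exceeded ileum in 17 of the 18 rats. Its log2 fold change was 1.17 (SE 0.25, adjusted p = 8.5e-05 in edgeR). *Actg2* (chr4:115215060-115239723) ran from 268 through a median of 1050 to 2830 CPM in ileum and from 1840 through 3260 to 7040 CPM in colon, a log2 fold change of 1.40 (SE 0.32, edgeR adjusted p = 2.2e-04). *Acta2*, the actin first described in vascular smooth muscle (chr1:252537615-252550394), ran from 139 through 326 to 698 CPM in ileum and from 400 through 746 to 1440 CPM in colon, a log2 fold change of 1.13 (SE 0.24, edgeR adjusted p = 1.2e-04). *Myl9*, the regulatory light chain, was at 799 ± 452 CPM (SD, n = 18) in ileum against 1430 ± 529 in colon, a log2 fold change of 0.79 (SE 0.26).

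**Figure D1:**
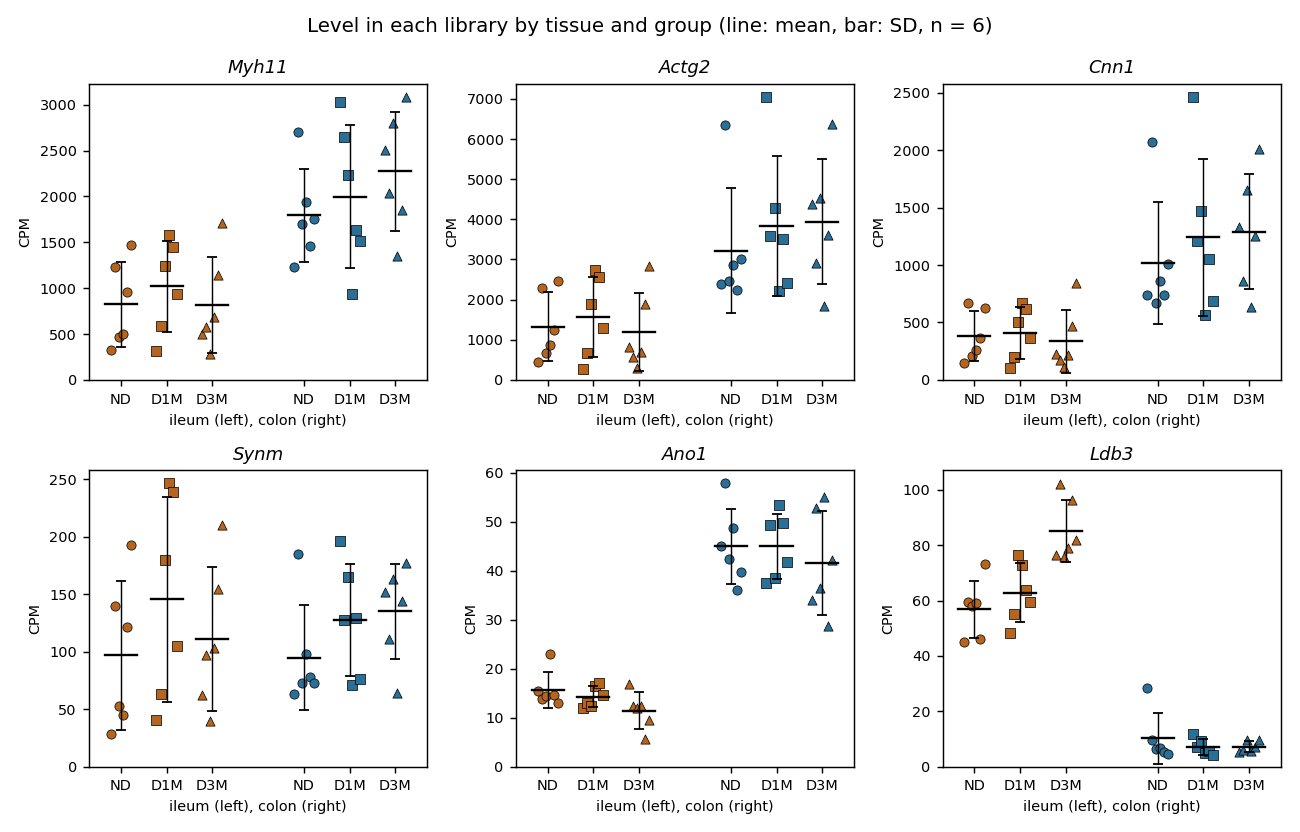
Level in CPM (vertical axis, from 0) of 6 genes in each of the 36 libraries, with ileum on the left and colon on the right of each panel and the ND, D1M and D3M rats side by side. Lines are means and bars SDs of 6 libraries. *Myh11*, *Actg2* and *Cnn1* overlap between the tissues, *Synm* is at like levels in both, *Ano1* lies at 28.8 CPM or more in colon and at 23 CPM or less in ileum, and *Ldb3* lies at 28.3 CPM or less in colon and at 45.2 CPM or more in ileum.

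Of the 7 genes of proteins that bind or cap the thin filament, 6 were higher in colon. *Cnn1*, calponin, which binds actin and slows the myosin ATPase (chr8:23113048-23121761), ran from 104 through 314 to 841 CPM in ileum and from 568 through 1030 to 2460 CPM in colon. Its log2 fold change of 1.56 (SE 0.30, edgeR adjusted p = 2.3e-05) was 2.96-fold on the linear scale, and colon was higher in 17 of 18 rats. *Smtn* (smoothelin) and *Tpm2* (beta tropomyosin) both had a log2 fold change of 0.95, with SEs of 0.20 and 0.26. *Lmod1*, the leiomodin that nucleates actin filaments in smooth muscle, followed at 0.80 (SE 0.25), *Cald1* (caldesmon) at 0.59 (SE 0.24) and *Tpm1* (alpha tropomyosin) at 0.55 (SE 0.18). *Synpo2*, an actin-bundling protein of the Z-disc and of dense bodies, was at 6.45 ± 3.24 CPM (SD, n = 18) in ileum against 9.15 ± 3.11 in colon, with a log2 fold change of 0.50 (SE 0.23, edgeR adjusted p = 0.0548) that missed the threshold.

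Of the enzymes that switch the light chain, the genes on this list, *Mylk* and *Ppp1r12b*, were closer between the tissues. Related genes on a further list, of contraction signalling, did differ and went both ways. *Ppp1r14a* at 1.00 (SE 0.14), *Ppp1cb* at 0.79 (SE 0.19) and *Ppp1r12c* at 0.45 (SE 0.16) were higher in colon. *Dapk3* at -0.61 (SE 0.07) and *Ppp1r12a* at -0.23 (SE 0.09) were lower. *Mylk*, the myosin light chain kinase, was at 741 ± 278 CPM (SD, n = 18) in ileum against 775 ± 187 in colon, higher in colon in 10 of 18 rats, with a log2 fold change of 0.13 (SE 0.16, edgeR adjusted p = 0.454). *Ppp1r12b*, a targeting subunit of myosin phosphatase, had a log2 fold change of 0.27 (SE 0.22, edgeR adjusted p = 0.258). *Dmpk*, a serine-threonine kinase of muscle, was higher in colon at 0.61 (SE 0.24, edgeR adjusted p = 0.0244). The intermediate filament genes differed in their calls. *Des* (desmin) was higher in colon, at 0.75 (SE 0.28), while *Synm* (synemin), which forms mixed filaments with desmin, was at 118 ± 71.8 CPM (SD, n = 18) in ileum against 119 ± 46.3 in colon, higher in colon in 9 of 18 rats, with a log2 fold change of 0.05 (SE 0.28, edgeR adjusted p = 0.874).

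Among the 8 genes of anchoring and scaffold proteins, 6 were higher in colon, *Ldb3* was lower and *Pgm5* did not pass. *Csrp1*, a LIM protein of the actin cytoskeleton, was at 399 ± 148 CPM (SD, n = 18) in ileum against 842 ± 260 in colon, with a log2 fold change of 1.03 (SE 0.17). *Pdlim7* followed at 0.93 (SE 0.18), *Flna* (filamin A) at 0.89 (SE 0.21), *Actn1* (alpha-actinin) at 0.71 (SE 0.12), *Vcl* (vinculin) at 0.65 (SE 0.12) and *Nexn* (nexilin) at 0.59 (SE 0.21). *Pgm5*, which sits at adherens junctions and costameres, had a log2 fold change of 0.52 (SE 0.31, edgeR adjusted p = 0.126). The 3 membrane genes *Cav1* (caveolin), *Kcnmb1* and *Cacna1c* were higher in colon at 0.86 (SE 0.15), 0.71 (SE 0.26) and 0.68 (SE 0.24), and *Myocd* at 0.61 (SE 0.26). *Kcnmb1* lies within the span of *Kcnip1* on the opposite strand, which had a median of 5.5 counts in ileum and 171 in colon. No source used here says whether counting used the strand, so reads of these genes may not be separated.

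*Ano1* and *Ldb3*, neither of which is part of the smooth muscle filament itself, stood apart from the rest, and they were the only 2 of the 29 genes whose 18 ileum and 18 colon libraries did not overlap. Over all genes tested, 7.68% were higher and 6.87% lower in colon without overlap. *Ano1* encodes the calcium-activated chloride channel by which interstitial cells of Cajal are known, and it is also made in some epithelia (chr1:217754336-217902473). It ran from 5.65 through 13.4 to 23 CPM in ileum and from 28.8 through 42.3 to 57.9 CPM in colon, a log2 fold change of 1.73 (SE 0.11, edgeR adjusted p = 4.4e-16), and was higher in colon in 18 of 18 rats. The highest ileum library, at 23 CPM, was that of K4040, which also held *Car1*, and the other 17 ileum libraries lay between 5.65 and 17.1 CPM. *Kit*, the receptor that marks interstitial cells of Cajal, was also higher in colon, at 36.9 ± 8.17 against 16.7 ± 3.70 CPM (SD, n = 18), a log2 fold change of 1.19 (SE 0.10). Genes of these cells did not all go this way. Of 8 listed, *Kit* among them, 4 were higher, 3 did not pass and *Elovl7* was lower at -2.29 (SE 0.25).

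*Ldb3*, a PDZ and LIM protein known from the Z-disc of striated muscle (chr16:10878334-10941501), went the other way. It ran from 45.2 through 68.5 to 102 CPM in ileum and from 4.22 through 6.59 to 28.3 CPM in colon, a log2 fold change of -3.01 (SE 0.19, edgeR adjusted p = 2.6e-15), which is 8.05-fold lower in colon. Colon was lower in all 18 rats. The highest colon library was that of ND rat K4028. There *Ldb3* stood at 41.3% of its ileal median and *Fabp6* at 37.6% of its own, and without that library the colon ranged from 4.22 to 11.9 CPM. The level of *Ldb3* in ileum followed the other muscle genes less closely than most of them followed each other, as described below.

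**Figure D2:**
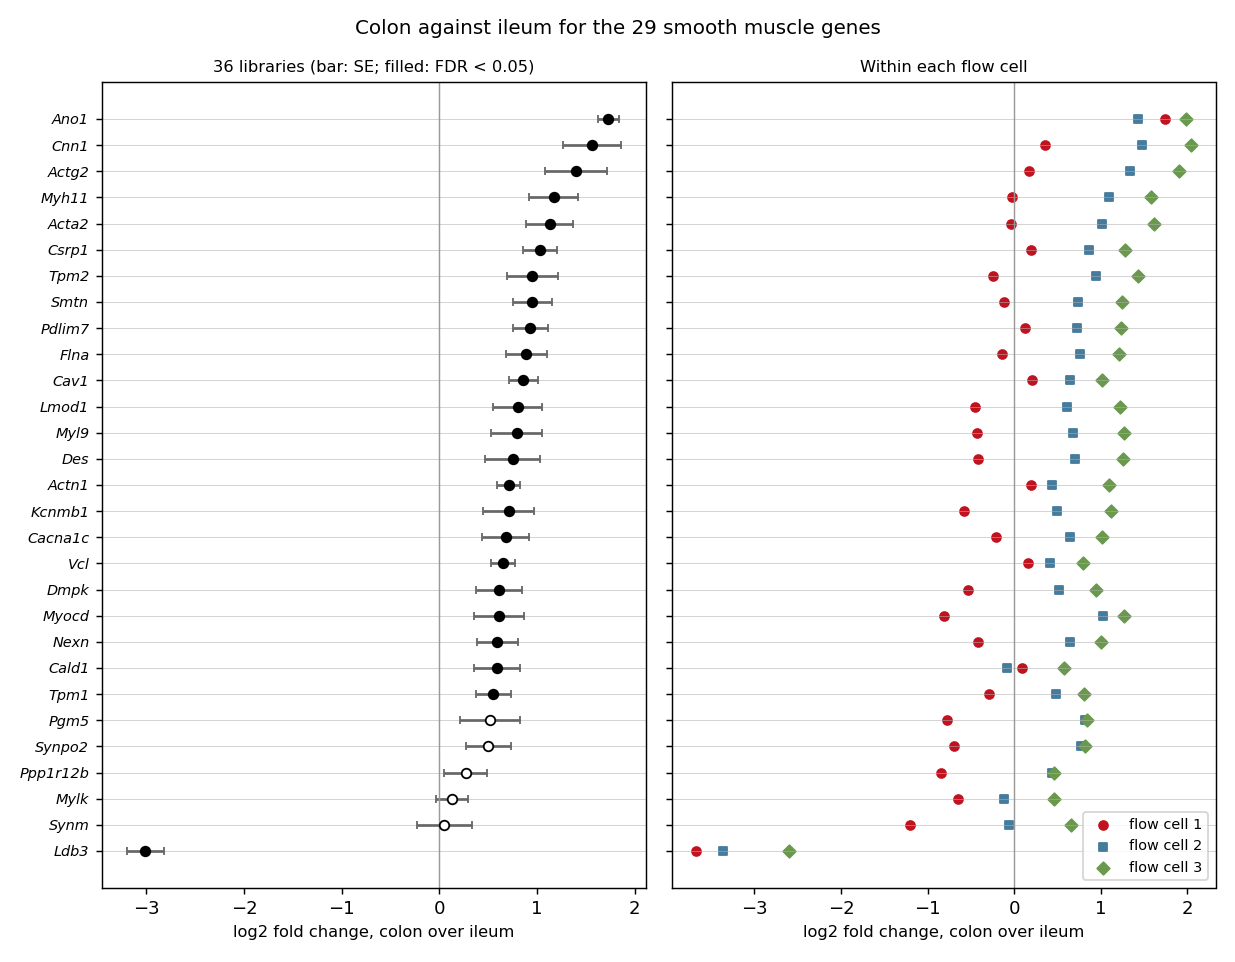
Log2 fold change, colon over ileum, of each of the 29 genes, in the fit to all 36 libraries on the left (bars are SEs, filled points pass FDR < 0.05) and in fits within each flow cell on the right. *Ano1* and *Ldb3* keep their place in each flow cell, while 20 of the 29 genes lie below 0 in flow cell 1.

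The libraries were sequenced on 3 flow cells, and the pooled difference was not uniform across them. Within flow cell 3, 28 of the 29 genes were positive, 16 passed as higher where 25.3% of all genes did, and the median log2 fold change was 1.12. Within flow cell 2, 25 were positive, 9 passed as higher where 20.1% of all genes did, and the median was 0.68. Within flow cell 1, 9 were positive and 20 negative, with a median of -0.25. There only *Ano1* passed as higher, where 26% of all genes did, and *Ldb3* at -3.67, *Synm* at -1.20, *Ppp1r12b* at -0.85 and *Mylk* at -0.65 passed as lower, where 25.6% did. Flow cell 1 held 8 ileum and 4 colon libraries. Its ND rats gave 1 ileum and 2 colon libraries, its D1M rats 3 and 2, and its D3M rats 4 ileum libraries and no colon library. Flow cell 2 held 4 ileum and 8 colon libraries, from ND rats 3 and 2, from D1M rats 1 and 2, and from D3M rats 4 colon libraries and no ileum library. Both estimates thus rest on 4 ileum and 4 colon libraries of ND and D1M rats, and that of flow cell 3 on 6 and 6 libraries of all 3 groups. *Myh11* had log2 fold changes of -0.02 (SE 0.26), 1.09 (SE 0.32) and 1.58 (SE 0.43) in flow cells 1, 2 and 3, and *Ano1* of 1.74 (SE 0.14), 1.43 (SE 0.13) and 1.98 (SE 0.25).

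The libraries high in B cell markers bore on the count of calls too. The 8 B cell genes themselves did not pass between the tissues, with summed levels from 4.31 to 903 CPM in ileum and from 3.02 to 898 CPM in colon. In ileum the 6 libraries with high B cell markers had a summed level of the 29 muscle genes from 3785 to 9438 CPM with a median of 5622, and the other 12 from 3496 to 16621 CPM with a median of 11808. In colon the medians were 15843 CPM in the 5 such libraries and 15481 CPM in the other 13. Without these 11 libraries 10 genes were higher in colon in place of 23, where 34.9% of all genes were, and the median log2 fold change was 0.48. These were *Ano1*, *Cnn1*, *Myh11*, *Csrp1*, *Acta2*, *Pdlim7*, *Smtn*, *Cav1*, *Actn1* and *Vcl*, with *Ano1* at 1.83 (SE 0.15) and *Myh11* at 0.90 (SE 0.34). *Ldb3* was at -3.10 (SE 0.27). Without the colon library of K4028 and the ileum library of K4040, 22 genes were higher and 1 was lower.

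Within each group of rats the same comparison rests on 6 libraries a tissue. In D3M rats 4 ileum libraries were on flow cell 1 and 4 colon libraries on flow cell 2, and only 2 of each tissue shared flow cell 3, so that tissue and flow cell can be told apart there only through the flow cell term of the model. In ND rats 12 genes were higher in colon and 1 lower, where 25.9% and 22.8% of all genes were called, or 48.6% in either direction. In D1M rats 7 were higher and 1 lower, against 31.4% and 26.5% of all genes (57.9% in either direction), and in D3M rats 15 were higher and 1 lower, against 30.6% and 28.3% (58.9% in either direction). *Cnn1* was higher in each group, with log2 fold changes of 1.38 (SE 0.50), 1.48 (SE 0.52) and 1.91 (SE 0.57) in ND, D1M and D3M rats. *Ano1* rose by 1.44 (SE 0.16), 1.73 (SE 0.16) and 2.14 (SE 0.19), and *Ldb3* was lower in colon at -2.58 (SE 0.31), -3.15 (SE 0.32) and -3.46 (SE 0.36). *Csrp1*, *Actn1*, *Cav1*, *Vcl* and *Pdlim7* also passed as higher in all 3 groups. Without the colon library of K4028 and the ileum library of K4040, 5 genes in place of 12 were higher in ND rats. The count in ND rats was 6, 7, 4 and 5 without rat K4028, K4037, K4038 or K4040. That in D1M rats was 3 and 2 without D1M rat K3978 or K3986, 12 without K3988, and 11 without D3M rat K3977 or P780 or ND rat K4037, which share the estimate of the spread. The count in D3M rats was 3 without flow cell 2 and 4 without the libraries high in B cell markers. The shares of all genes called in these fits without libraries or rats were not taken, so the counts are not set against them.

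Whether the tissue difference itself changed with the group was tested as an interaction. No gene of the 29 passed between D3M and ND, D1M and ND or D3M and D1M in edgeR, where 1.56%, 0% and 0% of all genes were called (0.292% higher and 1.27% lower in the first), and 1, 0 and 0 had an unadjusted p under 0.05, as 16.8%, 5.66% and 8.31% of all genes did. No gene of the 29 passed in DESeq2 either, which called 3.82%, 0.175% and 0.139% of all genes. DESeq2 gave an adjusted p to 10509, 11836 and 10244 of the 13697 genes, and the others could not be called. The 1 gene with an unadjusted p under 0.05 in edgeR was *Ano1*. Its colon minus ileum difference was larger in D3M than in ND rats by 0.69 on the log2 scale (SE 0.26, adjusted p = 0.156). *Ldb3* had an estimate of -0.89 (SE 0.44, adjusted p = 0.303). The median SE of this contrast was 0.61 over the 29 genes and 0.26 over all genes tested. Without ND rat K4048 *Ano1* passed, at 0.99 (edgeR adjusted p = 0.0259), and its estimate ran from 0.46 to 0.99 over all fits without 1 rat.

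Between the groups of rats within a tissue, 1 of the 29 genes passed in 1 of the 6 comparisons. In ileum *Ldb3* was higher in D3M than in ND rats, with a log2 fold change of 0.42 (SE 0.13, edgeR adjusted p = 0.0445), in a comparison where 12.5% of all 13026 genes tested were called, 8.31% higher and 4.22% lower. Its level in ileum was 45.2 to 73.1 CPM with a median of 58.5 in ND, 48.4 to 76.6 CPM with a median of 61.8 in D1M and 75.8 to 102 CPM with a median of 80.5 in D3M rats. The D3M libraries all lay above those of ND rats and overlapped those of D1M rats. The groups were not spread alike over the flow cells. In ileum 4 D3M libraries were on flow cell 1 and 2 on flow cell 3, and ND had 1, 3 and 2 on flow cells 1, 2 and 3. On flow cell 1 the ND library was at 73.1 CPM and the D3M libraries at 75.8, 76.5, 78.9 and 102 CPM. On flow cell 3 the ND libraries were at 45.2 and 59 CPM and the D3M libraries at 82 and 96.4 CPM. The call was lost without any 1 of 11 rats (ND rats K4028, K4038, K4040 and K4047, D1M rats K3986, K3988, K3989 and K3990, and D3M rats K3961, P762 and P780). The adjusted p reached 0.136 without K4028, and the estimate ran from 0.33 to 0.52 over all fits without 1 rat. Against D1M rats the estimate was 0.37 (SE 0.11, adjusted p = 0.0912). *Ano1* in ileum had an estimate of -0.74 (SE 0.24, adjusted p = 0.0512) in D3M against ND rats, with 5.65 to 16.9 CPM in D3M and 13 to 23 CPM in ND rats, which overlapped. It passed without ND rat K4048 (-1.01, adjusted p = 0.0115), D3M rat K3959 (-0.84, adjusted p = 0.0188) or D1M rat K3987 (-0.78, adjusted p = 0.0427). The estimate ran from -1.01 to -0.50 over all fits without 1 rat. The ND library at 23 CPM was that of K4040, which also held *Car1*, and the next ND library was at 15.4 CPM. On flow cell 1 the ND library was at 13 CPM and the D3M libraries at 12 to 16.9 CPM. On flow cell 3 the ND libraries were at 15.4 and 23 CPM and the D3M libraries at 5.65 and 9.43 CPM. The D3M library at 5.65 CPM was that of P762, which held *Car1* too, at 1490 CPM.

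**Figure D3:**
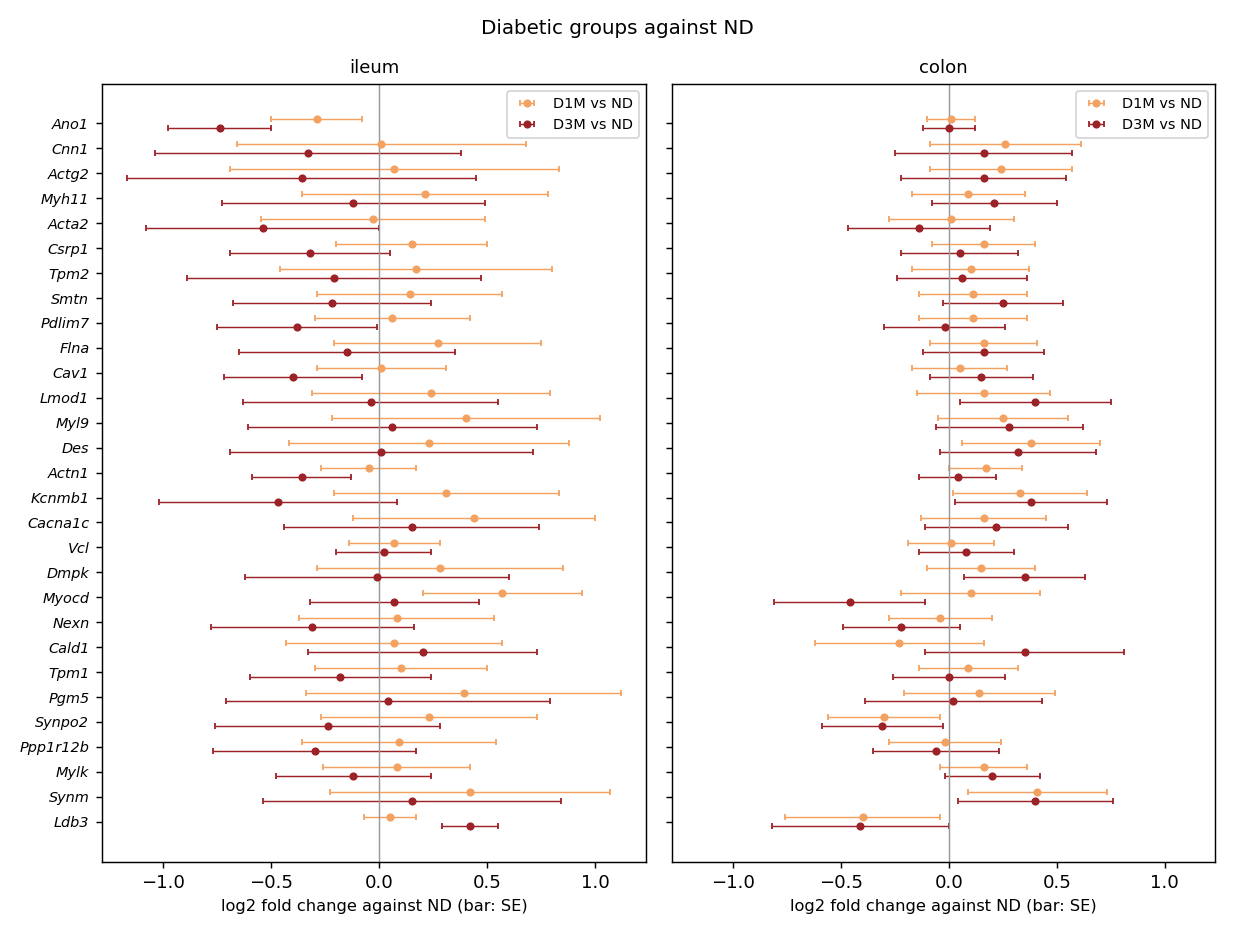
Log2 fold change of D1M and of D3M rats against ND rats (points, with SEs as bars) for each of the 29 genes in ileum and in colon. Most bars cross 0, the bars are longer in ileum than in colon, and *Ldb3* in ileum is the gene past the threshold in D3M rats.

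No other gene of the list passed in ileum, and none passed in colon, in edgeR as set up here. With upper quartile scaling or the quasi-likelihood method of edgeR 4, *Ano1* passed as lower in the ileum of D3M against ND rats (-0.78 and -0.72, both under an FDR of 0.05). For D1M against ND in ileum 0.0154% of all genes were called (0.00768% in each direction), for D3M against D1M 2.22% (1.93% higher and 0.292% lower), and in colon 0.0155%, 0% and 0% for D3M against ND, D1M against ND and D3M against D1M. At an unadjusted p under 0.05 there were 2 genes of the list in D3M against ND and 2 in D3M against D1M in ileum, *Ldb3* and *Ano1* each time, where 29.7% and 19.1% of all genes had such a p. There were 0 in each of the other 4 comparisons, where 4.66% to 10% of all genes had. DESeq2 called *Ldb3* in D3M against D1M in ileum, where it called 7.59% of all genes, and *Ldb3* and *Ano1* in D3M against ND, where it called 17.3%. It called none of the 29 in D1M against ND in ileum, where it called 0.338% of all genes, or in colon, where it called at most 0.558%. In D1M against ND it gave an adjusted p to only 2923 of the 13026 genes in ileum and 9399 of the 12906 in colon. Genes without an adjusted p could not be called. For *Myh11* the estimates of D3M against ND were -0.12 (SE 0.61) in ileum and 0.21 (SE 0.29) in colon. The median SE over the 29 genes for D3M against ND was 0.52 in ileum and 0.29 in colon, against 0.17 and 0.16 over all genes, so that changes of the size of these errors were not detectable with 6 rats a group.

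That width came from the spread among libraries of a group. The SD of log2 CPM within tissue and group, pooled over both tissues, was 0.70 at the median of the 29 genes, from 0.33 to 1.10. It was 0.31 at the median of all genes, and in this pooled measure each of the 29 lay above the latter. The median biological coefficient of variation of the 29 genes was 0.491 for ileum against 0.183 for all genes, and 0.318 for colon against 0.190. Within a tissue not every gene lay above the median of all genes. *Ldb3* in ileum was at 0.148 and *Ano1* in colon at 0.154. *Actg2* in the ileum of D3M rats ran from 303 to 2830 CPM, with a median of 748. *Ano1* varied least over both tissues, with an SD of 0.33, while in ileum alone *Ldb3* had the lowest coefficient.

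The genes moved together. The summed level of the 29 genes ran from 3785 to 14429 CPM in the ileum of ND, from 3587 to 15550 CPM in that of D1M and from 3496 to 16621 CPM in that of D3M rats, which is 3.81-fold, 4.34-fold and 4.75-fold from the lowest to the highest library. In colon the sums ran from 11384 to 26305, from 9664 to 30351 and from 10876 to 27645 CPM, or 2.31-fold, 3.14-fold and 2.54-fold. After the mean of each tissue and group was removed, 22 of the 29 genes had a Pearson r over 0.8 with the mean of the other 28 over the 36 libraries, where 1.88% of the genes that are no member exceeded 0.8 with the mean of the list. The libraries share depth and tissue section across genes, so these correlations are descriptions. *Flna* had an r of 0.99 (Spearman coefficient 0.99), *Synm* 0.98, *Myh11* and *Acta2* 0.97, and *Mylk* 0.88. *Synm* and *Mylk*, which did not differ between the tissues past the threshold, thus varied with the other muscle genes from library to library. Without the 2 libraries farthest from the median, r stayed at 0.99 for *Flna* and at 0.97 for *Myh11*. Without the libraries high in B cell markers the median SD was 0.74 and 24 genes had an r over 0.8, and without the colon library of K4028 and the ileum library of K4040 the values were 0.68 and 22.

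**Figure D4:**
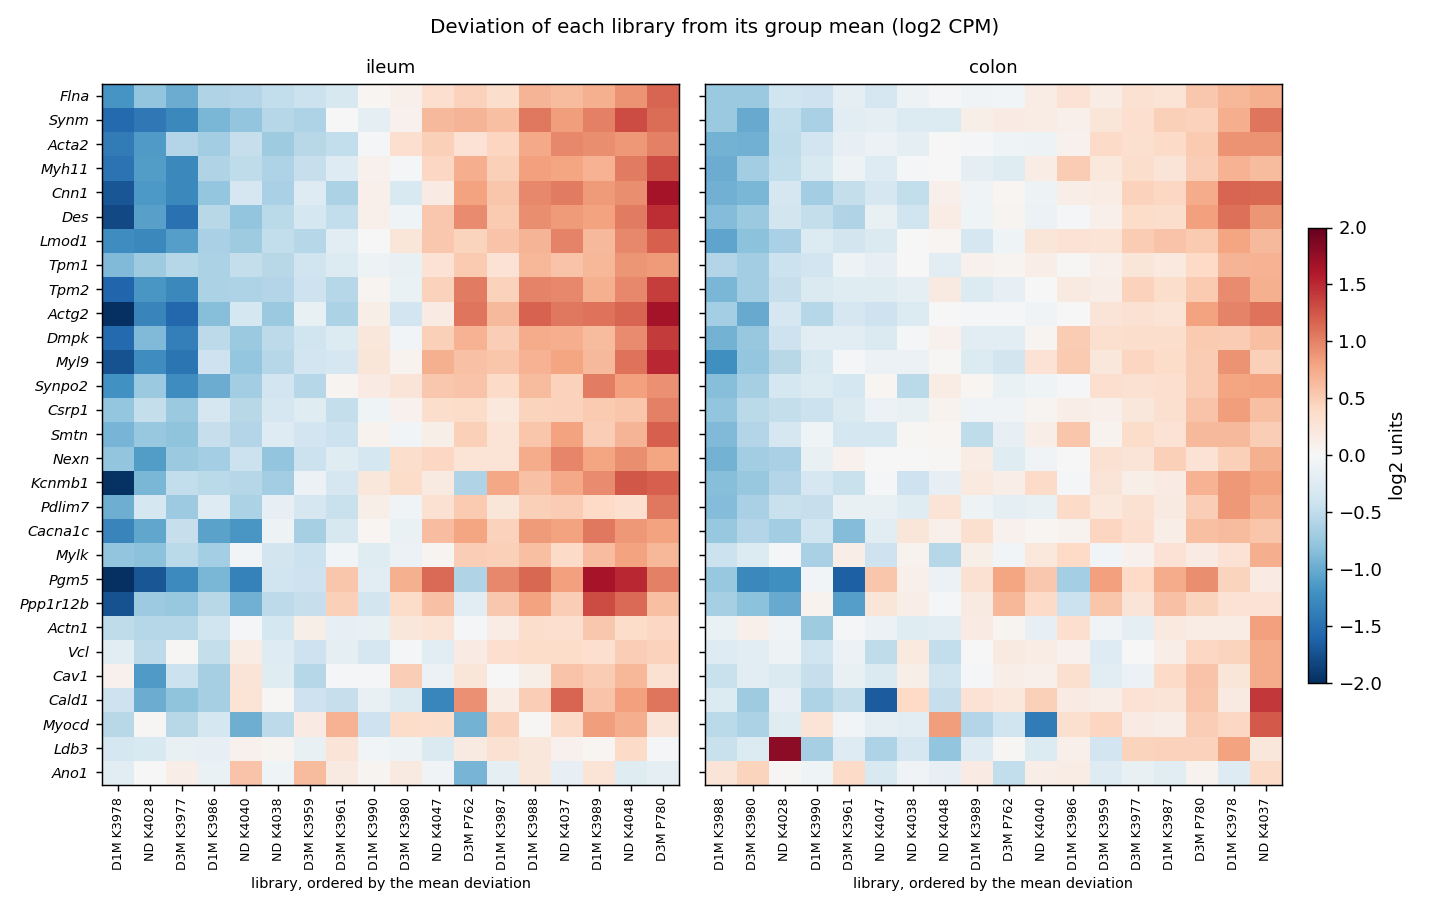
Deviation of each library from the mean of its tissue and group, in log2 units, for the 29 genes (rows, in the order of their correlation with the rest) in 18 ileum and 18 colon libraries (columns, in the order of the mean deviation). Colours change from blue to red together down the rows, except for *Ano1* and *Ldb3* at the bottom, where the single dark field in colon is the library of ND rat K4028.

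A few genes followed the rest less closely. *Actn1*, *Vcl*, *Cav1* and *Cald1*, which non-muscle cells also make, had r values of 0.78, 0.74, 0.71 and 0.67, and *Myocd*, at its low counts, 0.52. *Ldb3* had an r of 0.32 over both tissues (Spearman 0.53), 0.61 in ileum and 0.31 in colon, and of 0.63 over both without the colon library of K4028 and the ileum library of K4040. *Ano1* had an r of -0.24 (Spearman -0.25), with -0.23 in ileum and -0.26 in colon. Its deviations had an r of 0.61 (Spearman 0.66) with those of *Kit*, over the same 36 libraries, and *Kit* itself had -0.22 with the mean of the 29 genes. Other genes of the same cells were split in this. *Thbs4* had 0.93, *Cacna1h* 0.84 and *Etv1* 0.73, while *Gja1* had 0.37, *Hcn4* 0.18, *Elovl7* 0.09 and *Prkcq* 0.07. The mean deviation of the 8 genes, *Kit* among them, had an r of 0.82 with that of the 29 genes, 0.96 in ileum and 0.45 in colon.

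The level of the muscle genes in the ileum and in the colon of the same rat was compared over the 18 rats. The mean deviation of the 29 genes in ileum and in colon had an r of -0.06 (Spearman 0), and an r of 0 without the 2 rats farthest from the median in ileum. It was -0.09 over the 8 rats with no library high in B cell markers. The summed level was higher in colon in 17 of 18 rats, with a ratio of colon to ileum from 0.622 through a median of 1.87 to 8.46. The exception was D1M rat K3988, at 9664 CPM in colon and 15550 CPM in ileum, and the highest ratio belonged to D1M rat K3978, at 30351 and 3587 CPM.

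**Figure D5:**
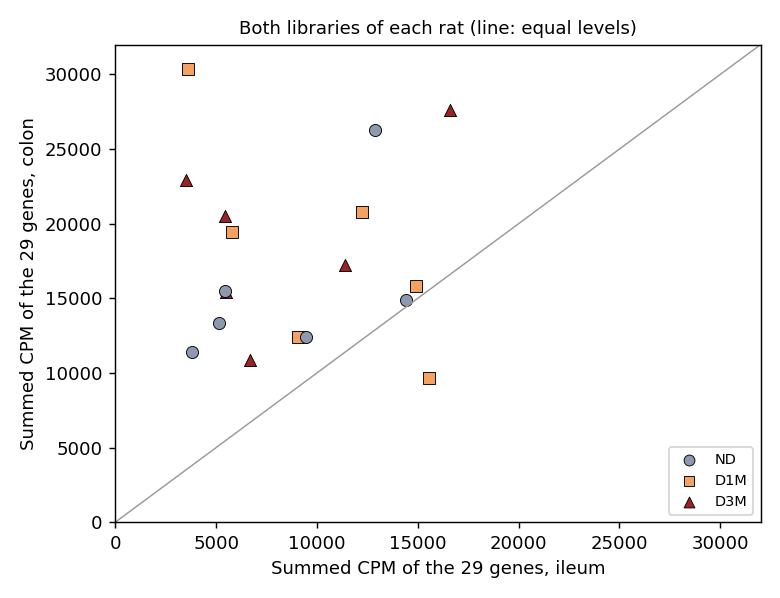
Summed CPM of the 29 genes in the ileum library (horizontal axis) and the colon library (vertical axis) of each of the 18 rats, with groups as symbols. All rats but K3988, with 15550 CPM in ileum and 9664 CPM in colon, lie above the line of equal levels, and the points follow no common slope.

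Each gene was also set against *Myh11* within its own library. Such a ratio is free of the level of muscle genes only for a gene that follows *Myh11* with a slope near 1. The slope of the deviations on those of *Myh11* was 0.98 for *Dmpk*, 1.09 for *Synm*, 0.59 for *Mylk* and 0.21 for *Ldb3*, and the ratios of *Mylk* and *Ldb3* thus fall where *Myh11* is higher, as it was in colon. Of the other 28 genes, 4 had a log2 ratio to *Myh11* that was lower in colon with no overlap of the 18 and 18 libraries, where 7.17% of all genes had, and 0 had a higher one, where 0.0146% of all genes had. The 4 genes were the same without the libraries high in B cell markers, and without the colon library of K4028 and the ileum library of K4040. Differences between gene lengths cancel in the comparison between tissues, and values are differences of log2 CPM. *Dmpk* kept the tightest proportion, at -2.39 ± 0.11 in ileum and -2.92 ± 0.11 in colon (SD, n = 18). *Mylk* was at -0.13 ± 0.39 and -1.35 ± 0.34, *Synm* at -2.98 ± 0.27 and -4.12 ± 0.29, and *Ldb3* at -3.51 ± 0.81 and -8.02 ± 0.71. *Acta2* was at -1.23 ± 0.30 and -1.31 ± 0.22, and *Cnn1* at -1.30 ± 0.24 and -0.84 ± 0.30, both with overlap.

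The CArG box, which serum response factor binds with myocardin as its cofactor, is known from the promoters of many smooth muscle genes. It is a pair of C, 6 bases that are A or T, and a pair of G, and reads as a CArG box on both strands. The 250 bases before the listed start of each gene were searched in the RefSeq promoter windows of build GRCr8, which is not the build of the counts. Of the 29 genes 25 had a window, and *Ldb3* alone held an exact box, where 501 of all 33469 windows did (1.5%). With 1 mismatch allowed, 7 of the 25 genes (28%) and 18.7% of all windows held a match. The stretches below are shown because they set the gene that was lower in colon beside 6 that were not, with the matched bases in capitals. Each reads 5′ to 3′ on the strand of the gene.
*Ldb3*, chr16:9924712-9924741, minus strand: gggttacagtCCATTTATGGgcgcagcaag
*Acta2*, chr1:241172618-241172647, minus strand: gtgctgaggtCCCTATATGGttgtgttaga
*Acta2*, chr1:241172568-241172597, minus strand: tgtctttgctCCTTGTTTGGgaagcgagtg
*Tpm1*, chr8:76543591-76543620, minus strand: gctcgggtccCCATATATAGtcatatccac
*Nexn*, chr2:243878207-243878236, minus strand: gcgcaccaggACTTTTATGGaaacttgctg
*Smtn*, chr14:82644605-82644634, minus strand: aggggcggggCCTAAAATTGaattttccca
*Synm*, chr1:130773997-130774026, minus strand: caacttatttTCTATTATGGaaagctgaga
*Cald1*, chr4:64233006-64233030, plus strand: ttcaaGCTTTTTAGGacttggtttt
The box of *Ldb3* begins 52 bases before its start and the pair in *Acta2* 134 and 84 bases before. *Tpm1* held a further match 55 bases before its start. These are matches of letters in 1 listed window per start. They were not tested against binding, and genes without a match may hold boxes outside the window, as introns and distant enhancers were not searched.

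Other genes of the muscle were read from further lists, beside the same counts over all genes given above. Of 36 other smooth muscle and costamere genes, 20 were higher and 7 lower in colon, with a median log2 fold change of 0.54, and 14 had an r over 0.8 with the 29 genes. *Filip1l* at 1.48 (SE 0.09) and *Csrp2* at 1.02 (SE 0.09) were higher and *Fhl2*, a LIM protein, lower at -1.24 (SE 0.08). These genes, named for their small p, followed the 29 genes little from library to library, with r of 0.34, -0.04 and 0.30. In the ileum of D3M against ND rats 2 genes of this list were higher and 0 lower, *Fhl2* at 0.63 (SE 0.12, edgeR adjusted p = 0.0047) and *Pdlim5* at 0.68 (SE 0.21, adjusted p = 0.0428). *Pdlim5* too had a low r with the 29 genes, of 0.27. Against D1M rats 0 genes of this list passed in ileum. In the interaction of D3M against ND, colon minus ileum, *Fhl2* was at -0.78 (SE 0.15, edgeR adjusted p = 0.0118). Of 30 genes of contraction signalling, 12 were higher and 10 lower, with a median of 0.10. *Pde5a*, the phosphodiesterase that breaks down cyclic GMP, was at 18.5 ± 4.55 CPM (SD, n = 18) in ileum against 4.22 ± 1.17 in colon, a log2 fold change of -2.06 (SE 0.13), and in ileum it was higher in D3M than in ND rats at 0.51 (SE 0.16, edgeR adjusted p = 0.045). *Gna11* was lower at -1.98 (SE 0.17) and *Stim1*, the calcium sensor of the sarcoplasmic reticulum, higher at 0.77 (SE 0.06).

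The cytoplasmic actin and myosin genes, which epithelium and other cells use, went mostly the other way. Of 12, 4 were higher and 7 lower in colon, with a median of -0.33. *Actb* was at 4590 ± 1140 CPM (SD, n = 18) in ileum against 1690 ± 378 in colon, and *Actn4* and *Tpm3* were lower at -0.95 (SE 0.08) and -1.07 (SE 0.08). None of the 12 had an r over 0.8 with the muscle genes. Of 8 genes of interstitial cells of Cajal, 4 were higher and 1 lower. *Cacna1h* at 1.80 (SE 0.16) and *Hcn4* at 2.47 (SE 0.23) were among the higher ones, and *Elovl7* was the lower one at -2.29 (SE 0.25). Of 4 genes of the Pdgfra cells of the muscle 1 was higher and 2 lower, with *P2ry1* at -1.02 (SE 0.15).

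Markers of other cells in the section moved with the muscle genes to unequal degrees. The mean deviation of 9 enteric neuron genes had an r of 0.93 with that of the 29 genes over the 36 libraries, that of 5 enteric glia genes 0.79 and that of 8 pericyte and vascular mural genes 0.80. Interstitial cells of Cajal had 0.82, Pdgfra cells 0.64, adipocytes 0.59, mesothelium 0.53 and striated muscle 0.39. Epithelium had 0.13, fibroblasts 0.22, endothelium -0.09 and B cells -0.24. Between the tissues 3 of 9 neuron genes were higher in colon and 1 lower, 3 of 5 glia genes higher and 1 lower, 4 of 8 pericyte and mural genes higher and 2 lower, 7 of 9 fibroblast genes higher and 2 lower, 1 of 7 endothelial genes higher and 4 lower, and 4 of 11 epithelial genes higher and 5 lower. Of 6 adipocyte genes 5 were higher, with *Fabp4* at 48.8 ± 43.9 CPM (SD, n = 18) in ileum against 836 ± 250 in colon. Of 8 striated muscle genes 4 were higher and none lower. *Acta1*, the skeletal muscle actin, was higher in the ileum of D3M than of ND rats, at 1.86 (SE 0.41, edgeR adjusted p = 0.011). It was also higher there than in D1M rats, at 1.46 (SE 0.35, edgeR adjusted p = 0.0433). In the interaction of D3M against ND, colon minus ileum, *Acta1* was at -2.03 (SE 0.45, edgeR adjusted p = 0.0236). *Tnnt3*, a troponin of fast skeletal muscle, was lower in the ileum of D3M than of ND rats, at -1.04 (SE 0.32, edgeR adjusted p = 0.0442). Mesothelial genes were mostly under the filter, and of the 2 tested 1 was higher. All 8 ileal identity genes were lower in colon and all 7 colonic ones tested were higher. The part of these cells in the levels of the muscle genes was not tested.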

How the data were processed

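The authors made TruSeq stranded mRNA libraries from polyadenylated RNA, sequenced them on a NextSeq 500, aligned reads with STAR to rn6 and counted them per gene in SeqMonk. The deposited raw counts are whole numbers with no normalization. No source used here says whether counting used the strand. A table of log2 values that the authors scaled to library totals, and 72 columns of standard deviations that hold 0, were not used. Genes were filtered with filterByExpr by tissue and group, scaled by TMM and tested in edgeR 4.0.16 under R 4.3.3 (glmQLFit, robust, legacy, with glmQLFTest), with flow cell as a covariate, all libraries of the fit sharing 1 estimate of the spread, and the method of Benjamini and Hochberg over all genes tested. The SE is the size of the log2 fold change over the square root of F. CPM values use the TMM scale of the 36 libraries, and log2 CPM a prior count of 2. The fits were tested on simulated data.

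All members are named. From the other lists, the text draws on the 3 genes with the smallest p between the tissues and on genes past FDR < 0.05 between groups, the latter for the muscle lists. *Thbs4*, *Etv1*, *Elovl7*, *Gja1*, *Prkcq*, *Ppp1r14a*, *Ppp1cb*, *Ppp1r12c*, *Dapk3* and *Ppp1r12a* were named after their values were seen. The members and lists were chosen with earlier results of these data known. Of the 30 members 29 matched by symbol. In 17 further lists 4 genes matched through an older symbol. The separate libraries of a group differed beyond counting error, with a chi-square per degree of freedom of at least 15.7 in every pair. The same rat gave both tissues, which pairs the libraries. Deviations over all genes of the 2 libraries of a rat had a correlation from -0.56 to 0.77 with a median of -0.02, over 0.1 in 7 of 18 rats. Alternatives were RLE and upper quartile scaling, other filters, DESeq2 1.42.0, the edgeR 4 quasi-likelihood method, a model that leaves the flow cell out, fits that drop flow cell 2, the 2 libraries with RNA of the other tissue or each rat in turn, and fits with the rat as a block. Fits within each flow cell, and fits and measures of spread without libraries high in B cell markers, were added after seeing the data. Sequences are from RefSeq, build GRCr8. Figures were drawn with matplotlib 3.10.9.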

Additional observations from a re-analysis of the deposited data

Results flagged for a closer look

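In each group of 6 libraries the highest and the lowest value of each gene and of the summed level were set against the rest by Dixon's ratio, the gap to the nearest library over the range of the group. Of 180 sets of 6 values 11 exceeded its critical value, where chance alone would give about 1 in 20 of independent sets. The sets are not independent, as most of the genes vary together and the summed level is their sum. Several flags of 1 library are thus not separate findings, and the count by itself shows no excess over chance. The colon library of ND rat K4037 gave 9 of the 11, each as the highest of its group. It held 26305 CPM of the summed level, where the next library held 15481 CPM. By gene it held 1440 CPM of *Acta2*, 6340 of *Actg2*, 137 of *Actn1*, 174 of *Cav1*, 2070 of *Cnn1*, 2150 of *Des*, 32.4 of *Nexn* and 185 of *Synm*. The colon library of ND rat K4028, which held *Fabp6*, was the highest of its group in *Ldb3* at 28.3 CPM against 9.61 CPM in the next library. The ileum library of ND rat K4040, which held *Car1*, was the highest in *Ano1* at 23 CPM against 15.4 CPM in the next.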

How the results depend on the processing

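Between the tissues *Ano1* was higher and *Ldb3* lower in all 33 fits run, at 1.43 to 1.98 and -3.67 to -2.60. The count of 23 genes higher in colon fell to 12 without flow cell 2, where 34.1% of all genes were higher. It fell to 10 without libraries high in B cell markers (34.9% of all genes), and to 1 and 9 within flow cells 1 and 2 (26% and 20.1%). Flow cell 1 had 4 genes lower in place of 1, where 25.6% of all genes were lower. With single rats left out the count of higher genes lay between 20 and 25. With the rat as replicate block it was 24 and no gene was lost. The call the pairing added was *Synpo2* (0.61, adjusted p = 0.0376). *Myocd* missed the threshold without rat K3978, K3986, K3990, K4028, K4037 or K4038 (0.44 to 0.73 over all rats left out), and *Dmpk* (0.52 to 0.71) and *Cald1* (0.53 to 0.65) without K3986, K4038 or K4040. The count in D1M rats of 7 was 11 with upper quartile scaling, with DESeq2 and with no flow cell term, 2 without flow cell 2 and 1 without libraries high in B cell markers. In ND rats 12 became 4, 5 and 2 without flow cell 2, without the 2 libraries with RNA of the other tissue and without libraries high in B cell markers. In D3M rats 15 became 3 without flow cell 2 and 4 without libraries high in B cell markers. With single rats left out the counts ran from 4 to 15 in ND, from 2 to 12 in D1M and from 12 to 20 in D3M rats. For these changed counts within a group of rats, the share of all genes was taken with DESeq2 alone, where 29.7% were higher in D1M rats.

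For D3M against ND in ileum the 1 higher gene became 0 with upper quartile scaling, no filter, and without flow cell 2, the 2 libraries or the libraries high in B cell markers, and ran from 0 to 1 with single rats left out. *Ano1* became the 1 lower gene with upper quartile scaling, DESeq2 and the edgeR 4 method, and in some fits without 1 rat (0 to 1). DESeq2 gave 1 higher gene for D3M against D1M in ileum, as did the fit without D3M rat K3959 (0 to 1), and the interaction D3M against ND gave 0 to 1 when rats were left out. The cause was not tested.

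The sign turned for *Synm* at -0.12 without flow cell 2, -0.32 without libraries high in B cell markers and -0.06 within flow cell 2, and from -0.07 to 0.17 with single rats left out, for *Mylk* at -0.09 without libraries high in B cell markers and -0.12 within flow cell 2, and for *Cald1* at -0.08 within flow cell 2. Within flow cell 1 the estimates below 0 were *Dmpk* -0.53, *Synm* -1.20, *Pgm5* -0.77, *Acta2* -0.04, *Synpo2* -0.70, *Nexn* -0.42, *Myl9* -0.43, *Cacna1c* -0.21, *Tpm2* -0.25, *Tpm1* -0.29, *Des* -0.42, *Myh11* -0.02, *Kcnmb1* -0.58, *Myocd* -0.81, *Mylk* -0.65, *Ppp1r12b* -0.85, *Lmod1* -0.45, *Smtn* -0.12 and *Flna* -0.14.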
